A study of Mus musculus with 8 samples.

Results

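Macrophages grown from mouse bone marrow (bone marrow-derived macrophages, BMDMs) that had been given interleukin 4 (IL-4) and washed before lipopolysaccharide (LPS) were compared with BMDMs given LPS alone. The libraries were chosen by their labels, 2 libraries of IL-4 then LPS and 2 of LPS, numbered 1 and 3 in both groups, which makes 4 of the 8 libraries of the series. Cells of the first group received 20 ng/ml IL-4 for 24 h, a wash and 100 ng/ml LPS for 4 h, and cells of the second group 100 ng/ml LPS for 4 h. The other 4 libraries, 2 of untreated control cells and 2 of cells given 20 ng/ml IL-4 for 24 h, helped to estimate the spread and gave the effect of IL-4 at rest. The strain, the age and number of the animals, and whether cells of the LPS group were kept for the time of the IL-4 step and washed are not given in the sources used here. The title of the series speaks of immunity trained by IL-4. The comparison sets levels after LPS in macrophages that had met IL-4 against those in macrophages that had not. It can include differences that IL-4 made without LPS, so the effect of IL-4 at rest is given further below.

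IL-4 is a cytokine of type 2 immunity. Its receptor, which contains the Il4ra chain, activates Jak kinases and the transcription factor Stat6, which binds DNA at paired TTC and GAA letters, and macrophages under IL-4 make lectins, chitinase-like and resistin-like proteins, arginase and the chemokines that bind Ccr4. LPS, a component of the outer membrane of Gram-negative bacteria, is sensed by Tlr4 with Cd14 and Ly96. The adaptors Myd88 and Ticam1 then lead to NF-kB, which drives inflammatory cytokines, and to interferon beta, which acts back on the cells through its own receptor.

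The 4 libraries compared held 7924932 to 9431852 counts, and 12234 genes passed the filter on low counts in the 8 libraries. Levels are CPM, counts scaled to a common library total after scaling by TMM factors (the trimmed mean of M-values). Adjusted p values are those of edgeR's quasi-likelihood test, adjusted by Benjamini and Hochberg's method across these genes, and values under 0.05 were called. Differences are log2 fold changes ± standard error (SE). Libraries with the same number differed from their group means together, so the test was run without and with a replicate term, and each call says which. By Xist and Y-linked reads number 1 was female and number 3 male, so the term cannot be told apart from sex. Differences of genes called only with the term, and those at rest, come from the fit with it, and those of genes called in neither fit from the fit without it unless stated. Among macrophage identity markers, 14 of 14 passed the filter, and their summed level was 31325 and 34782 CPM after LPS and 22459.9 and 30017 CPM after IL-4 then LPS. The summed levels of the other marker lists were far lower, from 95.2 to 170.4 CPM for neutrophils, 11.5 to 32.8 CPM for lymphocytes and 8.01 to 19.3 CPM for dendritic cells. Cd3e and Ncr1 of T and natural killer cells and Ly6g, Mpo and Elane of neutrophils and their precursors held 0 reads in the 4 libraries.

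Without the replicate term 8 genes were called between IL-4 then LPS and LPS alone, 6 higher (0.049% of the genes tested) and 2 lower (0.0163%). The 6 that rose were the alternative activation genes Retnla, Rnase2a, Mgl2 and Chil3, the chemokine gene Ccl22 and the integrin gene Itgax, and the 2 that fell were the repressor gene Bcl6 and the scavenger protein gene Cd5l. All 8 differed at least 2-fold, and all 8 were also called with the term. In RNA from whole cultures, a change in the number of cells that make a transcript and a change in the transcript per cell cannot be told apart.

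Retnla encodes the secreted resistin-like molecule alpha (ENSMUSG00000061100, chromosome 16, 48842551 to 48844461, mm10). It held 0 reads in both LPS libraries and 27.4 and 34.8 CPM in the libraries of IL-4 then LPS, numbers 1 and 3. With 456 reads against 0, it was at least 150-fold higher (the LPS group set to a floor of 3 reads in both its libraries together, adjusted p 0.00346). Rnase2a, a gene of the eosinophil-associated ribonucleases (ENSMUSG00000047222, chromosome 14, 51255262 to 51256112), also held 0 reads after LPS. It stood at 17.2 and 18.2 CPM after IL-4 then LPS, 258 reads in all, at least 84.9-fold higher (adjusted p 0.00489). Both genes were thus read only in libraries that had received IL-4, since the control libraries held 0 reads of either as well.

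Mgl2 encodes a galactose-binding C-type lectin of macrophages (ENSMUSG00000040950, chromosome 11, 70130329 to 70137550). Its level was 1.54 and 0.553 CPM after LPS and 129.8 and 67.6 CPM after IL-4 then LPS, a log2 fold change of 6.54 ± 0.61 (adjusted p 0.00907). Both libraries with IL-4 stood far above both without, with number 1 above number 3 in each group. Chil3, which encodes the chitinase-like protein Ym1 (ENSMUSG00000040809, chromosome 3, 106147554 to 106167564), measured 1.4 and 1.8 CPM and 111 and 153 CPM, a difference of 6.36 ± 0.36 (adjusted p 0.00179). Counts of Mgl2 and Chil3 could hold reads of their near-identical neighbours Clec10a and Chil4, and those of Rnase2a reads of related ribonucleases.

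Ccl22 encodes a chemokine that binds Ccr4 (ENSMUSG00000031779, chromosome 8, 94745590 to 94751699). It measured 36.1 and 37.9 CPM after LPS and 279.7 and 263 CPM after IL-4 then LPS, a difference of 2.87 ± 0.22 (adjusted p 0.00346). The control libraries held 0.173 and 0.495 CPM and those of IL-4 alone 4.82 and 2.9 CPM, so of the 4 groups the one given both agents was the highest. Itgax, the alpha chain of the integrin CD11c/CD18 (ENSMUSG00000030789, chromosome 7, 128129547 to 128150657), measured 158 and 129 CPM and 598 and 549 CPM, a difference of 2.0 ± 0.15 (adjusted p 0.00346). Its level in the cells given IL-4 alone, 437 and 454 CPM, also stood above that of both LPS libraries, and the groups with and without IL-4 did not overlap.

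Bcl6 encodes a zinc finger repressor of inflammatory and chemokine genes (ENSMUSG00000022508, chromosome 16, 23965052 to 23988852). Its level was 92.4 and 83.6 CPM after LPS and 18.2 and 17.9 CPM after IL-4 then LPS, a difference of -2.28 ± 0.16 (adjusted p 0.00346). Control cells held 42.1 and 51.6 CPM and cells given IL-4 alone 38.1 and 43.1 CPM, so both libraries of IL-4 then LPS were below all 6 others. Cd5l, a secreted protein of the scavenger receptor family made by tissue macrophages (ENSMUSG00000015854, chromosome 3, 87357881 to 87371073), measured 73.1 and 55.1 CPM and 13.4 and 14.4 CPM, a difference of -2.20 ± 0.17 (adjusted p 0.00346). The lower level was also seen without LPS, at 16.2 and 15.6 CPM with IL-4 alone against 61.8 and 60.2 CPM in control cells.

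**Figure D1:**
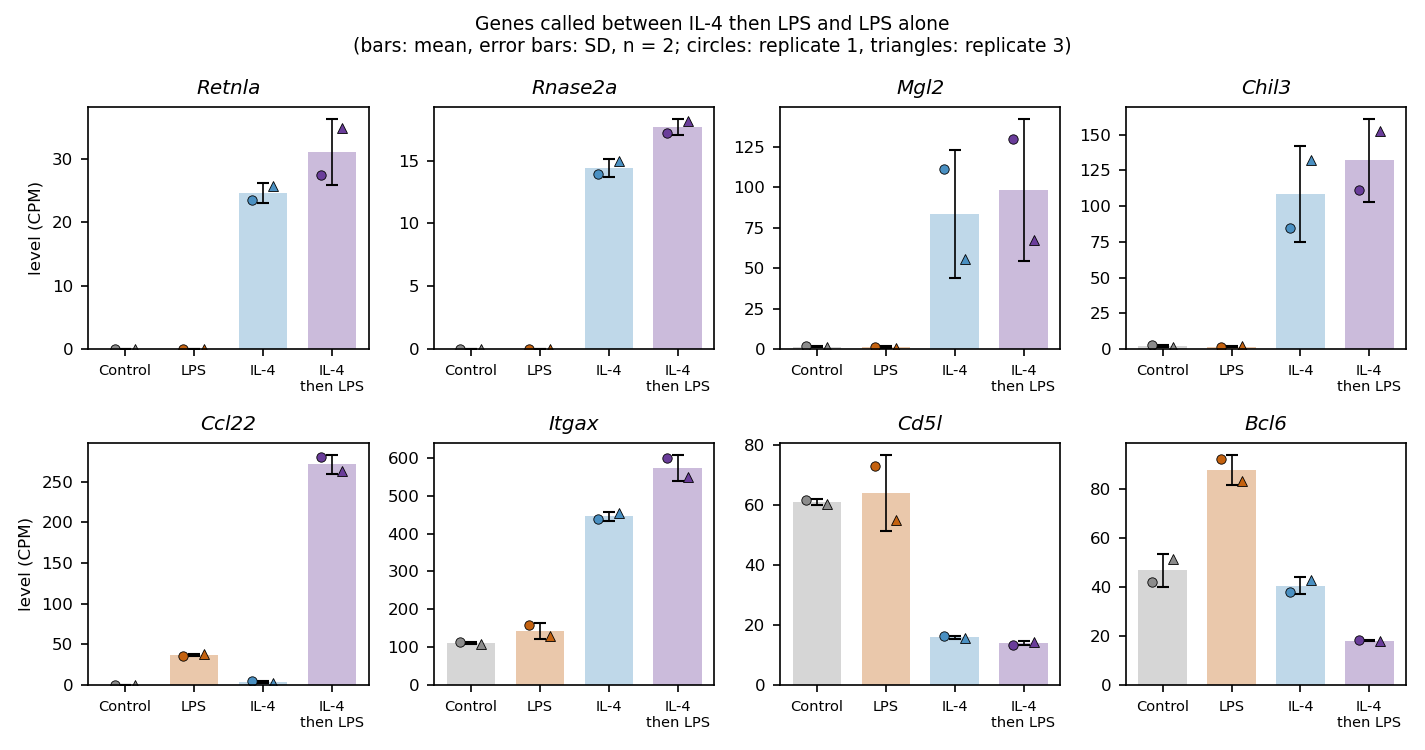
Levels in CPM of the 8 genes called without the replicate term, for the 4 groups on a linear axis from 0. Bars are means, error bars SD with n = 2, circles library 1 and triangles library 3. Retnla, Rnase2a, Mgl2, Chil3 and Itgax were high in both groups given IL-4, Ccl22 was highest after IL-4 then LPS, Cd5l was low in both groups given IL-4, and Bcl6 was lowest after IL-4 then LPS.

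Without the term, 3 of these calls were lost when a single library was left out. Ccl22 (adjusted p 0.0599) and Mgl2 (0.101) did not pass without LPS replicate 1, Mgl2 (0.0922) did not pass without LPS replicate 3, and Cd5l (0.0593) did not pass without IL-4 then LPS replicate 1. When only the 4 libraries compared were fitted, Cd5l had an adjusted p of 0.0677, and Itgax, Mgl2 and Rnase2a of 0.0506. With the replicate term all 8 were called in each of 12 further fits, and their largest adjusted p with a library left out was 0.0175, for Rnase2a.

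The promoters of 3 genes in each direction, the first by the rule for named genes, which takes genes called without the term before the others, are shown because Stat6 is the factor through which IL-4 is known to act, and so that the letters can be read beside the levels. Each runs from 250 bases before to 50 bases from the start of the gene in the direction of transcription (RefSeq, GRCm38.p6, the assembly also called mm10). Bcl6 has 2 promoters in the table, of which the one nearest the deposited gene start is shown, and the RefSeq starts of Retnla, Mgl2 and Cd300ld5 lie 58, 28 and 79 bases from the deposited ones. Capitals mark the letters TTCNNNNGAA, the spacing that Stat6 prefers, or TTCNNNGAA, the spacing of other Stat factors, where N is any base. Both patterns read the same on either strand, and no stretch can match both spacings at the same TTC and GAA.

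Retnla, chr16:48842359-48842658, plus strand: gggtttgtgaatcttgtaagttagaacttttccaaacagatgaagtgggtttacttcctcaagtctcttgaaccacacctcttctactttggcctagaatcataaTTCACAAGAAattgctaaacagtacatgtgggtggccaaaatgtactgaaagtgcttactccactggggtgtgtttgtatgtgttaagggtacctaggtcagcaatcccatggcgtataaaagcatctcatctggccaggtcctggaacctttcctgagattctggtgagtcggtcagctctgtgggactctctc
Rnase2a, chr14:51256063-51256362, minus strand: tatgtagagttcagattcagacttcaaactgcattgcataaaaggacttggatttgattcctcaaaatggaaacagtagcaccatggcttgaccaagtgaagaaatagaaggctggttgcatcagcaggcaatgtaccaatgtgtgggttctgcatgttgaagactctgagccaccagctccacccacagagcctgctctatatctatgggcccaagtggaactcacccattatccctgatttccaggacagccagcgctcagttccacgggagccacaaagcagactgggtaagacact
Mgl2, chr11:70130107-70130406, plus strand: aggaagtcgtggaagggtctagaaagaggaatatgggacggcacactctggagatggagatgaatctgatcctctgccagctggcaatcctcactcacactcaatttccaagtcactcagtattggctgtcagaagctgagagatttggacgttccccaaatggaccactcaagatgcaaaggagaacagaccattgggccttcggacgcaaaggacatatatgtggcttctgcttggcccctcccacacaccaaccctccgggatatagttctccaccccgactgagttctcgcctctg
Cd300ld5, chr11:115037641-115037940, minus strand: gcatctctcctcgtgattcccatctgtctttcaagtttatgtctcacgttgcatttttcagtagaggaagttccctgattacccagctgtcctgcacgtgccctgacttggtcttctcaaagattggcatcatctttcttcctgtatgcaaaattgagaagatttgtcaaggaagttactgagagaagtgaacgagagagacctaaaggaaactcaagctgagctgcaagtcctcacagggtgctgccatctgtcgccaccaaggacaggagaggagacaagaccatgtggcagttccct
Bcl6, chr16:23988803-23989102, minus strand: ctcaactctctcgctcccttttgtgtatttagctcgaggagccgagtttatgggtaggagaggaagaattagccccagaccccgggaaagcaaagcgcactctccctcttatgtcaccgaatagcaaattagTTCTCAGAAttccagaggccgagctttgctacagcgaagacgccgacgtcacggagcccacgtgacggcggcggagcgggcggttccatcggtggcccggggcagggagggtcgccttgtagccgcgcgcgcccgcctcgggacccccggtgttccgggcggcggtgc
Cd5l, chr3:87357631-87357930, plus strand: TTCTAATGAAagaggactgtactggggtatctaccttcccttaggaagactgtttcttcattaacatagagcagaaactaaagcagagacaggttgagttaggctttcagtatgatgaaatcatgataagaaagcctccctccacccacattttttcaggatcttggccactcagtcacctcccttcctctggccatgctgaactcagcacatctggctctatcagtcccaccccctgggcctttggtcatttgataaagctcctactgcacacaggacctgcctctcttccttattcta

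The Retnla promoter held TTCACAAGAA from base 106 to base 115 of the stretch, the Cd5l promoter TTCTAATGAA from base 1 to base 10, and the Bcl6 promoter TTCTCAGAA, of the shorter spacing, from base 133 to base 141. Rnase2a, Mgl2 and Cd300ld5 held neither pattern in these windows. Of all 32851 promoters of this length in the RefSeq table, 6.95% held TTCNNNNGAA and 8.30% TTCNNNGAA. Among promoters of tested genes the shares were 5.59% and 6.89%. Among the 117 promoters of genes higher with the replicate term they were 9.40% and 4.27%, and among the 155 of genes lower with it 11.0% and 9.03%. A match describes letters in a window and was not measured as a bound site.

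With the replicate term 132 genes were higher (1.08% of the genes tested) and 149 lower (1.22%), 64 and 53 of them at least 2-fold. In 126 of the 132 and 133 of the 149 the groups did not overlap, which was so for 16.6% of all genes in the higher and 19.8% in the lower direction. The calls came from the same libraries, so this adds no evidence for them. The median over all tested genes was -0.028. With library-size scaling in place of TMM factors, where that median was 0.036 without the term, the term gave 156 higher and 88 lower, so that the higher genes made up 63.9% of the calls in place of 47.0%. With upper-quartile factors they made up 56.5%.

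These counts rested on all 4 libraries. Without LPS replicate 1, LPS replicate 3, IL-4 then LPS replicate 1 and IL-4 then LPS replicate 3 in turn, 12, 64, 14 and 33 genes were higher and 10, 95, 9 and 17 lower. The single calls were followed for 80 genes, those that the rule for named genes chose and the term called, and not for the other list members named below. Of these 80, 62, 36, 64 and 56 were no longer called in these fits, and 0 turned in sign. Besides the 8 genes above, 4 of the 80 were called in each of the 12 further fits: Lrrc32, Ptgs1, Fcgr1 and Tmem176b. The calls of Rrad, Adgre4, Cd4, Clec4b1 and Cpt1a were each lost when any 1 of the 8 libraries was left out. With library-size scaling Cd4, Cpt1a, Tgtp1, Trp53i11 and Pfkl were not called, and with upper-quartile factors Cd4, Clec4b1, Cpt1a, Tgtp1 and Trp53i11 were not. DESeq2 with the term did not call Il1a, Il23a, Cxcl3, Cxcl11, Ccnd2 and Tgtp1.

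Of the 15 genes named in each direction for the size of their difference, 9 of those higher were called only with the term. Lrrc32, which carries latent transforming growth factor beta on the cell surface, measured 2.8 and 7.05 CPM after LPS and 29.9 and 42.6 CPM after IL-4 then LPS, a difference of 2.93 ± 0.24 (adjusted p 0.000841). Apol7c, of the apolipoprotein L family, measured 1.68 and 3.18 CPM and 19.3 and 26.3 CPM (3.24 ± 0.28, adjusted p 0.00209). In both genes each library with IL-4 was above each without.

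Arg1, the arginase that turns arginine into ornithine and urea, held 0 reads after LPS and 51 after IL-4 then LPS, at 5.69 and 1.56 CPM, at least 16.8-fold higher (adjusted p 0.0144). Ccl17, whose product shares the receptor Ccr4 with that of Ccl22, measured 1.68 and 2.21 CPM and 21.1 and 18.2 CPM (3.32 ± 0.42, adjusted p 0.00678). Both stood above the LPS libraries in each library with IL-4, although Arg1 stayed at a few CPM. Ocstamp, which takes part in the fusion of macrophages, measured 0.56 and 0 CPM and 6.42 and 4.8 CPM (4.40 ± 0.71).

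Cldn11, a claudin of tight junctions, held 1 read after LPS and 74 after IL-4 then LPS, a ratio of 73.1 (95% counting interval 12.7 to 2925). Map2, which binds microtubules, held 2 and 43 reads, a ratio of 21.2 (5.53 to 181), and the lectin gene Clec4b1 2 and 29 reads, a ratio of 14.3 (3.62 to 124). These intervals are wide, with 1 or 2 reads counted after LPS alone. Gm8221, a predicted gene, measured 0.42 and 1.11 CPM and 4.52 and 10.1 CPM (3.26 ± 0.54, adjusted p 0.0246).

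Of the 15 that were lower, 13 were called only with the term. Ms4a6b, a membrane protein gene of the MS4A family, measured 58.4 and 52.2 CPM after LPS and 12 and 9.08 CPM after IL-4 then LPS (-2.41 ± 0.23, adjusted p 0.002). Tmem176b, which encodes a membrane protein of myeloid cells, measured 49.4 and 34 CPM and 13.3 and 8.69 CPM (-1.93 ± 0.15, adjusted p 0.000704). Its gene overlaps Tmem176a, from which its reads could not be told apart without knowledge of strand. Both genes were lower in each library with IL-4.

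Ggta1, a galactosyltransferase that makes the alpha-gal sugar, measured 278 and 138 CPM and 74.2 and 42.2 CPM (-1.83 ± 0.25), and Pou2f2, a POU domain transcription factor, 60.2 and 61.6 CPM and 19.7 and 14.9 CPM (-1.81 ± 0.33). At rest IL-4 gave differences of -0.048 ± 0.24 and -1.04 ± 0.32 (adjusted p 0.956 and 0.151), and the tests of the difference between the effects did not pass (adjusted p 0.285 and 0.841). Cd300ld5, of the CD300 receptors, measured 6.86 and 9.26 CPM and 1.17 and 0.26 CPM (-3.51 ± 0.58), and the haptoglobin gene Hp 4.06 and 9.26 CPM and 0.438 and 1.82 CPM (-2.66 ± 0.45). The libraries of the groups did not overlap in any of these 4 genes.

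The other genes of this set were the Ras-related GTPase gene Rrad (-2.27 ± 0.43), the adhesion receptor gene Adgre4 (-2.07 ± 0.41), the orphan receptor gene Gpr162 (-1.95 ± 0.34), Cd4 (-1.78 ± 0.38), Trp53i11, a gene induced by Trp53 (-1.76 ± 0.34), and the cytokine genes Il10 and Cxcl11 described below. Within each replicate number, as the rule for naming them required, all 30 genes had the direction of the fit.

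**Figure D2:**
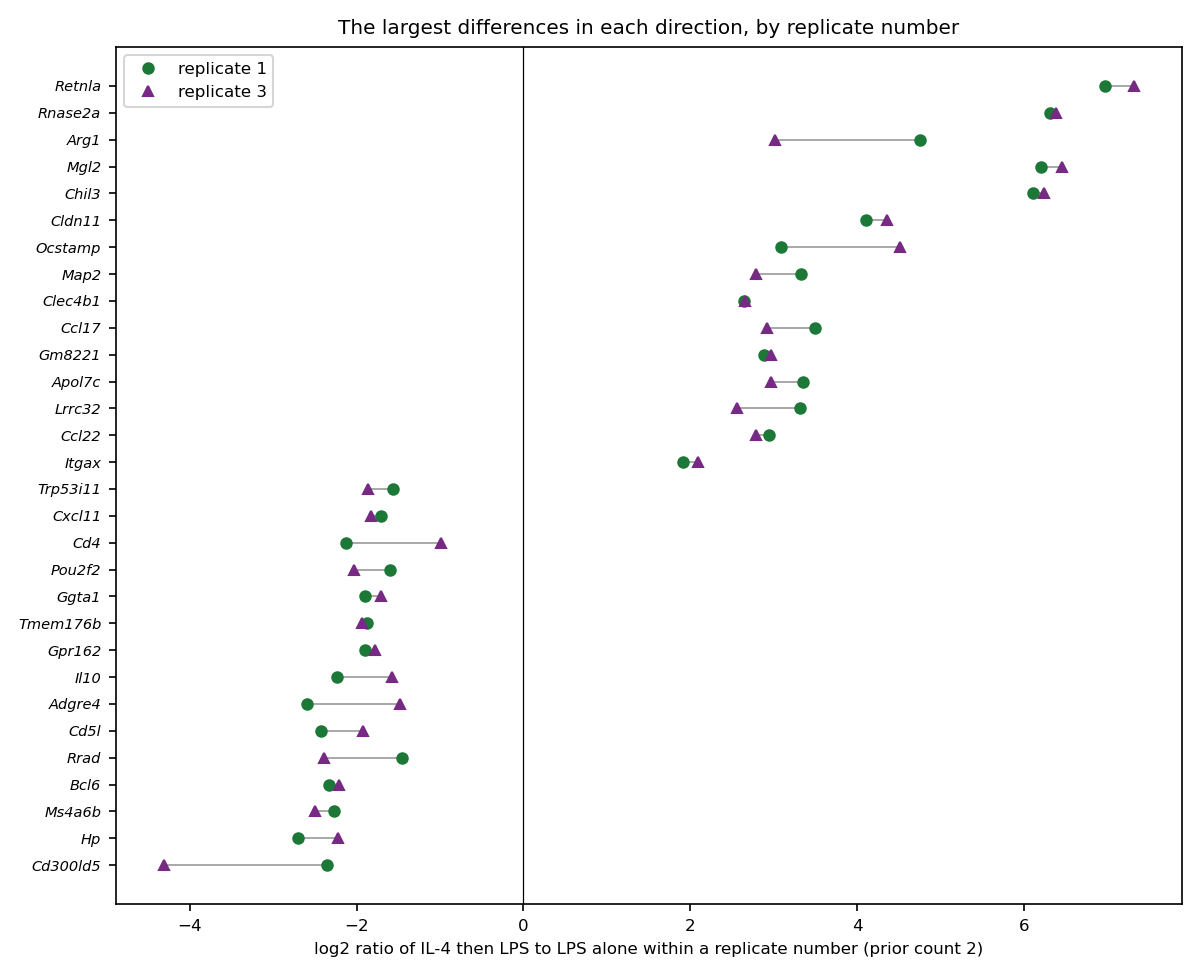
Log2 ratio of IL-4 then LPS to LPS alone within replicate 1 (circles) and within replicate 3 (triangles), with a prior count of 2, for the 15 genes named in each direction. By the rule that chose the genes every pair of points lies on 1 side of 0. The points of Arg1, Ocstamp, Cd300ld5, Cd4 and Adgre4 lie farther apart than those of Chil3, Itgax or Bcl6.

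The list of IL-4 and alternative activation genes held 34 genes, of which 31 passed the filter. Without the term 6 rose and 0 fell, and with it 14 were higher and 0 lower, against 1.08% and 1.22% of all genes. Their median difference was 1.19, against -0.028 over all genes. With the libraries left out in the order given above, 8, 12, 8 and 9 were higher. The list was drawn up around genes that IL-4 is known to move, with earlier results of these data known. It is not independent evidence of its direction.

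Beyond those already named, the called members were Dcstamp, Flt1, Mrc1, Slc7a2, Mmp12 and Clec7a. Dcstamp, the partner of Ocstamp in cell fusion, measured 4.9 and 4.01 CPM after LPS and 18.7 and 19.9 CPM after IL-4 then LPS (2.11 ± 0.27). Mrc1, the mannose receptor, measured 121 and 45.3 CPM and 270.3 and 123 CPM (1.28 ± 0.14, adjusted p 0.0043), and was higher within each number, although the lower library with IL-4 was close to the higher one without. Slc7a2, an arginine transporter that LPS also induces, measured 869 and 869 CPM and 1928 and 1762 CPM (1.09 ± 0.16). The elastase gene Mmp12 measured 2321 and 1681 CPM and 4444 and 3615 CPM (1.02 ± 0.12), without overlap.

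Among the members that were not called, Irf4, a transcription factor of alternative activation, measured 2.24 and 0.829 CPM and 8.02 and 4.8 CPM (2.06 ± 0.45, adjusted p 0.0568 with the term). Egr2, another such factor, had a difference of -0.16 ± 0.27 after LPS and 1.56 ± 0.18 at rest (adjusted p 0.819 and 0.00392, both with the term), and the test of the difference between these effects did not pass (adjusted p 0.258). Of 13 genes of the receptor and its signalling, 0 were higher and 0 lower with the term, with a median of -0.16. The receptor chain Il4ra measured 449 and 106 CPM and 194 and 87.8 CPM, Stat6 175 and 183 CPM and 218 and 209 CPM, and the inhibitor Socs1 247 and 159 CPM and 293 and 237 CPM, and the differences of -0.98 ± 0.62, 0.25 ± 0.14 and 0.38 ± 0.36 did not pass. The difference of Il4ra lay mostly in number 1.

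Inflammatory cytokine genes were a further group with many members higher with the term. Of 22 tested, 0 were called without the term. With it 8 were higher and 1 lower, against 1.08% and 1.22% of all genes. The median was 0.52, against -0.028 over all genes. Those higher were Il1a, Il1b, Il6, Il12a, Il12b, Il23a, Inhba and Tnfsf15, and the 1 lower was Ebi3. DESeq2 with the term called 6 higher, without Il1a (adjusted p 0.248) and Il23a (0.489). With the same libraries left out, 0, 8, 0 and 2 were higher, so that 0 were called without LPS replicate 1 or IL-4 then LPS replicate 1.

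Il1a and Il1b, the genes of interleukin 1 alpha and beta, which signal through a common receptor, lie close together on chromosome 2. Il1a measured 390.3 and 262 CPM after LPS and 1210.4 and 652 CPM after IL-4 then LPS (1.48 ± 0.17, adjusted p 0.00485). Il1b measured 1355 and 1018 CPM and 3395 and 1766 CPM (1.06 ± 0.17, adjusted p 0.0159). In both genes each library with IL-4 was above each without, and number 1 was above number 3 in both groups. Il6, the gene of interleukin 6, measured 410.3 and 559.9 CPM and 964 and 1025 CPM (1.05 ± 0.16, adjusted p 0.0144).

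The subunit genes of the interleukin 12 family moved in different directions. Il12b, the subunit common to interleukins 12 and 23, measured 319 and 805 CPM and 524 and 1256 CPM (0.68 ± 0.10, adjusted p 0.0146), Il12a, the other subunit of interleukin 12, 12.5 and 30.4 CPM and 36.9 and 79 CPM (1.46 ± 0.16, adjusted p 0.00808), and Il23a, the other subunit of interleukin 23, 3.64 and 1.38 CPM and 31.2 and 5.45 CPM (2.71 ± 0.38, adjusted p 0.0191). Number 3 was above number 1 for Il12a and Il12b and below it for Il23a, and the groups overlapped for Il12b. Ebi3, the subunit of interleukins 27 and 35, measured 108 and 76.5 CPM and 33.7 and 36.7 CPM (-1.39 ± 0.19, adjusted p 0.00944), lower in each library with IL-4.

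Several products best known from LPS stimulation were not called. Tnf, tumour necrosis factor, measured 1542 and 3338 CPM after LPS and 2439.8 and 3857 CPM after IL-4 then LPS, and its difference of 0.37 ± 0.84 did not pass (adjusted p 0.942, 0.524 with the term). Nos2, the inducible nitric oxide synthase, measured 1914 and 1338 CPM and 1987 and 1779 CPM (0.21 ± 0.22), and Ifnb1, interferon beta, 5.04 and 2.63 CPM and 6.13 and 1.95 CPM (0.066 ± 0.73). The groups of all 3 genes overlapped.

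**Figure D3:**
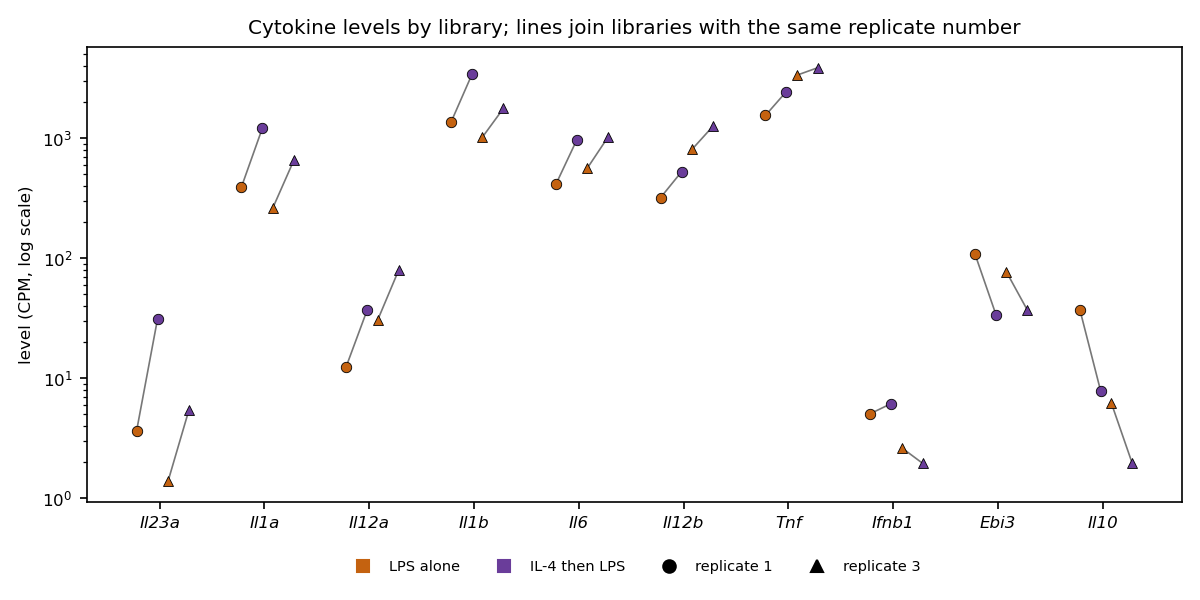
Levels in CPM on a log axis of 10 cytokine genes in the 4 libraries compared, orange for LPS alone and purple for IL-4 then LPS, circles for number 1 and triangles for number 3, with lines joining libraries of the same number. The lines of Il23a, Il1a, Il12a, Il1b, Il6, Il12b and Tnf run upward in both numbers, those of Ebi3 and Il10 downward, and those of Ifnb1 in opposite directions.

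Of 21 chemokine genes, 1 rose without the term (Ccl22). With it 6 were higher and 1 lower, against 1.08% and 1.22% of all genes, with a median of 0.031. Beside Ccl22 and Ccl17, these were Ccl2 (1.10) and Ccl7 (1.07), which attract monocytes through Ccr2, and Cxcl1 (1.07) and Cxcl3 (1.62), which attract neutrophils through Cxcr2. Cxcl3 measured 82.9 and 217 CPM after LPS and 397 and 436 CPM after IL-4 then LPS, without overlap, and DESeq2 with the term did not call it (adjusted p 0.0997). Cxcl11, a ligand of Cxcr3 that interferon induces, measured 70.4 and 12.6 CPM and 21.4 and 3.37 CPM (-1.77 ± 0.31, adjusted p 0.0293), lower within each number, with groups that overlapped, and it was not called by DESeq2 with the term (adjusted p 0.816). Cxcl10, another such ligand, measured 7620.4 and 7034 CPM and 6340.4 and 5236 CPM and did not pass (-0.34 ± 0.72). Leaving out the libraries in that order left 1, 7, 1 and 4 chemokine genes higher.

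Anti-inflammatory and feedback genes, 28 of which were tested, had a median of -0.28, with 19 below 0 (54.0% of all genes were). With the term 0 were higher and 2 lower, against 1.08% and 1.22% of all genes. The 2 were Bcl6 and Il10, of which Bcl6 fell without the term too. Il10, the gene of the anti-inflammatory interleukin 10, measured 37.2 and 6.22 CPM after LPS and 7.73 and 1.95 CPM after IL-4 then LPS (-2.05 ± 0.39, adjusted p 0.034). Its level differed so much between the numbers that the groups overlapped, and the adjusted p without the term was 0.52. The count lower was 1, 2, 1 and 1 with the libraries left out in that order.

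The 35 inducible and lineage transcription factors had a median of -0.14. With the term 0 were higher and 5 lower, against 1.08% and 1.22% of all genes. Besides Bcl6 they included Maf (-1.03 ± 0.14), a leucine zipper factor, Id3 (-0.86 ± 0.13), which blocks helix-loop-helix factors, and Jun (-0.73), a subunit of AP-1. Maf measured 211 and 309 CPM after LPS and 119 and 132 CPM after IL-4 then LPS, without overlap. With a library left out, in that order, 2, 5, 1 and 2 of the list were lower.

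Genes of the type I interferon response had small differences, nearly all below 0. Of 48 members, 45 had a difference below 0 (54.0% of all genes did), all but Gbp2, Oasl1 and Irf1, and the median was -0.29. In 39 both libraries of IL-4 then LPS were below both of LPS, against 19.8% of all genes. With the term 1 was lower, against 1.22% of all genes. It was the GTPase gene Tgtp1 (40.3 and 32.1 CPM and 17.9 and 13 CPM, -1.23 ± 0.26, adjusted p 0.0479), called in 3 of the 12 further fits. The median ran from -0.29 to -0.22 over 15 alternatives. Next in size, and not called, were Ifit3b (-0.96) and Ifit3 (-0.77), of the interferon-induced proteins with tetratricopeptide repeats, and Iigp1 (-0.66), a GTPase of vacuole defence. Tgtp1 overlaps other genes, and its reads could not be told apart from theirs.

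Pattern recognition and inflammasome genes had a median of -0.24, with 26 of 32 below 0 (54.0% of all genes were). With the term 3 were lower and 0 higher, against 1.22% and 1.08% of all genes. Tlr9, the receptor of unmethylated DNA, measured 63 and 82.4 CPM after LPS and 26.3 and 28.3 CPM after IL-4 then LPS (-1.42 ± 0.23, adjusted p 0.0173). Cd14, which hands LPS to Tlr4, measured 2368 and 2269 CPM and 1211 and 1349 CPM (-0.85 ± 0.14, adjusted p 0.0181), and Ly86, the partner of the Tlr4 homologue Cd180, 126 and 88.8 CPM and 73.5 and 61.2 CPM (-0.66 ± 0.12). Tlr4 itself measured 107 and 86.1 CPM and 112 and 77.1 CPM and did not pass (-0.034 ± 0.19). The count lower was 1, 1, 0 and 0 with the libraries left out in that order.

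MHC class II and co-stimulation genes had a median of 0.69. With the term 6 of 16 were higher and 1 lower, against 1.08% and 1.22% of all genes, and without it 0 were called. The class II chain H2-Aa (0.76), the peptide exchange subunits H2-DMa (0.90 ± 0.18) and H2-DMb1 (0.82), the invariant chain Cd74 (0.85 ± 0.14), the class II transactivator Ciita (0.85 ± 0.13) and the T cell ligand Cd80 (1.08 ± 0.22) were higher. Cd74 measured 1688 and 1733 CPM and 2719 and 3488 CPM, and Ciita 50.7 and 86.2 CPM and 94.5 and 152 CPM, without overlap. The ligand gene Icosl was lower (-0.57). Leaving out the libraries in that order left 0, 1, 0 and 0 class II genes higher. Of 20 MHC class I presentation genes, 0 were higher and 0 lower, with a median of -0.16.

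Phagocytic, scavenger and Fc receptors were split. Of 28, 3 were higher and 6 lower with the term, against 1.08% and 1.22% of all genes, with a median of -0.18. Fcgr1, the high-affinity receptor of immunoglobulin G, measured 372 and 289.7 CPM after LPS and 134 and 102 CPM after IL-4 then LPS (-1.49 ± 0.13, adjusted p 0.0014). Fcgr4, another such receptor (-1.04), Stab1, a scavenger receptor (-0.90), Axl (-0.59), which recognises dying cells, and Gas6, the ligand of Axl (331 and 250.1 CPM and 145 and 133 CPM, -1.05 ± 0.12), were also lower, as was Cd5l. Cd36, a receptor of oxidised lipoproteins (0.99), and Itgb2, the integrin chain that pairs with Itgax (0.65), were higher. The count lower was 2, 6, 2 and 4 with a library left out, in the same order.

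The 13 genes of cell fusion and osteoclasts had a median of 0.38. With the term 5 were higher and 0 lower, against 1.08% and 1.22% of all genes. Beside Dcstamp and Ocstamp, these were the proton pump subunit Atp6v0d2 (215 and 166 CPM and 394 and 282 CPM, 0.82 ± 0.12), the collagenase cathepsin K gene Ctsk (63.6 and 71.4 CPM and 116 and 148 CPM, 0.96 ± 0.10) and the integrin chain Itgb3 (22.3 and 20 CPM and 61.3 and 35.3 CPM, 1.16 ± 0.18). None of these groups overlapped. Of 28 integrin, adhesion and matrix genes, 5 were higher, Itgax, Itgb2, Itgb3, Mmp12 and the fibronectin gene Fn1 (1.74 ± 0.36). With the libraries left out as before, 0, 2, 1 and 1 fusion genes and 1, 2, 2 and 2 adhesion genes were higher.

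Genes of the mitochondrial respiratory chain had small differences, all above 0. All 45 oxidative phosphorylation genes tested had a difference above 0 (46.0% of all genes did), from 0.021 for Uqcrc2 to 0.69 for Cox5b, with a median of 0.27. In 31 both libraries of IL-4 then LPS were above both of LPS, against 16.6% of all genes. Only Cox5b, a subunit of cytochrome oxidase, was called with the term (30.7 and 39.8 CPM and 51.9 and 61.4 CPM, 0.69 ± 0.13, adjusted p 0.0283), and not without any 1 of the 4 libraries. The median ran from 0.24 to 0.36 over 15 alternatives. The share of reads from the mitochondrial genome, measured per library, was 1.07% and 1.14% after LPS and 1.27% and 1.26% after IL-4 then LPS, and its part in these differences was not tested. Of 24 genes of the tricarboxylic acid cycle and itaconate, 22 were above 0, with a median of 0.21. Idh2, the mitochondrial isocitrate dehydrogenase (0.75 ± 0.14), and the aconitase gene Aco1 (0.52 ± 0.10) were higher with the term. The term called 1.08% of all genes higher.

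Glycolysis genes had a median of -0.099, with 11 of 20 below 0, where 54.0% of all genes were below 0. Pfkfb3, which makes the activator of phosphofructokinase, measured 916 and 248 CPM after LPS and 328 and 131 CPM after IL-4 then LPS (-1.24 ± 0.23, adjusted p 0.0291), and the phosphofructokinase gene Pfkl 139 and 174 CPM and 97.7 and 89 CPM (-0.73 ± 0.14), both lower with the term. The groups overlapped for Pfkfb3, whose level was much higher in number 1. Of 23 fatty acid oxidation genes 1 was lower, the carnitine transferase gene Cpt1a (-0.54 ± 0.11). Of 23 cholesterol synthesis genes 0 were higher and 0 lower. The term called 1.08% of all genes higher and 1.22% lower.

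In the arginine, nitric oxide and polyamine list, Arg1 and Slc7a2 were higher with the term and Odc1, the first enzyme of polyamine synthesis (440.4 and 153 CPM and 224 and 96.8 CPM, -0.83 ± 0.13), was lower, of 15 tested. Of 17 prostaglandin and leukotriene genes, 3 were higher and 0 lower, against 1.08% and 1.22% of all genes. DESeq2 with the term called 3 higher and 3 lower. Ptgs1, the constitutive cyclooxygenase, measured 6.86 and 3.32 CPM after LPS and 42.6 and 20.1 CPM after IL-4 then LPS (2.61 ± 0.20, adjusted p 0.000704). Ptgs2, the inducible cyclooxygenase, measured 1420.4 and 1859 CPM and 2209 and 3223 CPM (0.72 ± 0.11), and Tbxas1, thromboxane synthase, 67.2 and 47.4 CPM and 119.7 and 85.2 CPM (0.84 ± 0.13). All 3 were higher without overlap, and Ptgs1 had the largest difference. In the list of NF-kB subunits and immediate effectors, Ptgs2 and the pentraxin gene Ptx3 (21.3 and 20.9 CPM and 88.5 and 92.8 CPM, 2.10 ± 0.17) were higher, of 26 tested.

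In the list of cholesterol efflux and lipid handling, Scd1, which desaturates fatty acids, measured 44.9 and 29.8 CPM and 118 and 64.4 CPM (1.26 ± 0.15), and Lpl, lipoprotein lipase, 2342 and 1690.4 CPM and 3869.8 and 2897 CPM (0.75 ± 0.16). Both were higher with the term. Apoe, the apolipoprotein of cholesterol efflux, measured 2969 and 4313 CPM and 1376 and 2577 CPM (-0.92 ± 0.12), lower within each number and without overlap, as was Cd5l. With the libraries left out in the order given above, 1, 1, 1 and 1 prostaglandin and leukotriene genes, 1, 1, 0 and 1 NF-kB genes, 0, 1, 0 and 0 tricarboxylic acid cycle genes and 0, 1, 0 and 1 arginine genes were higher, and 0, 1, 0 and 0 glycolysis genes and 1, 2, 1 and 2 lipid genes lower.

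**Figure D4:**
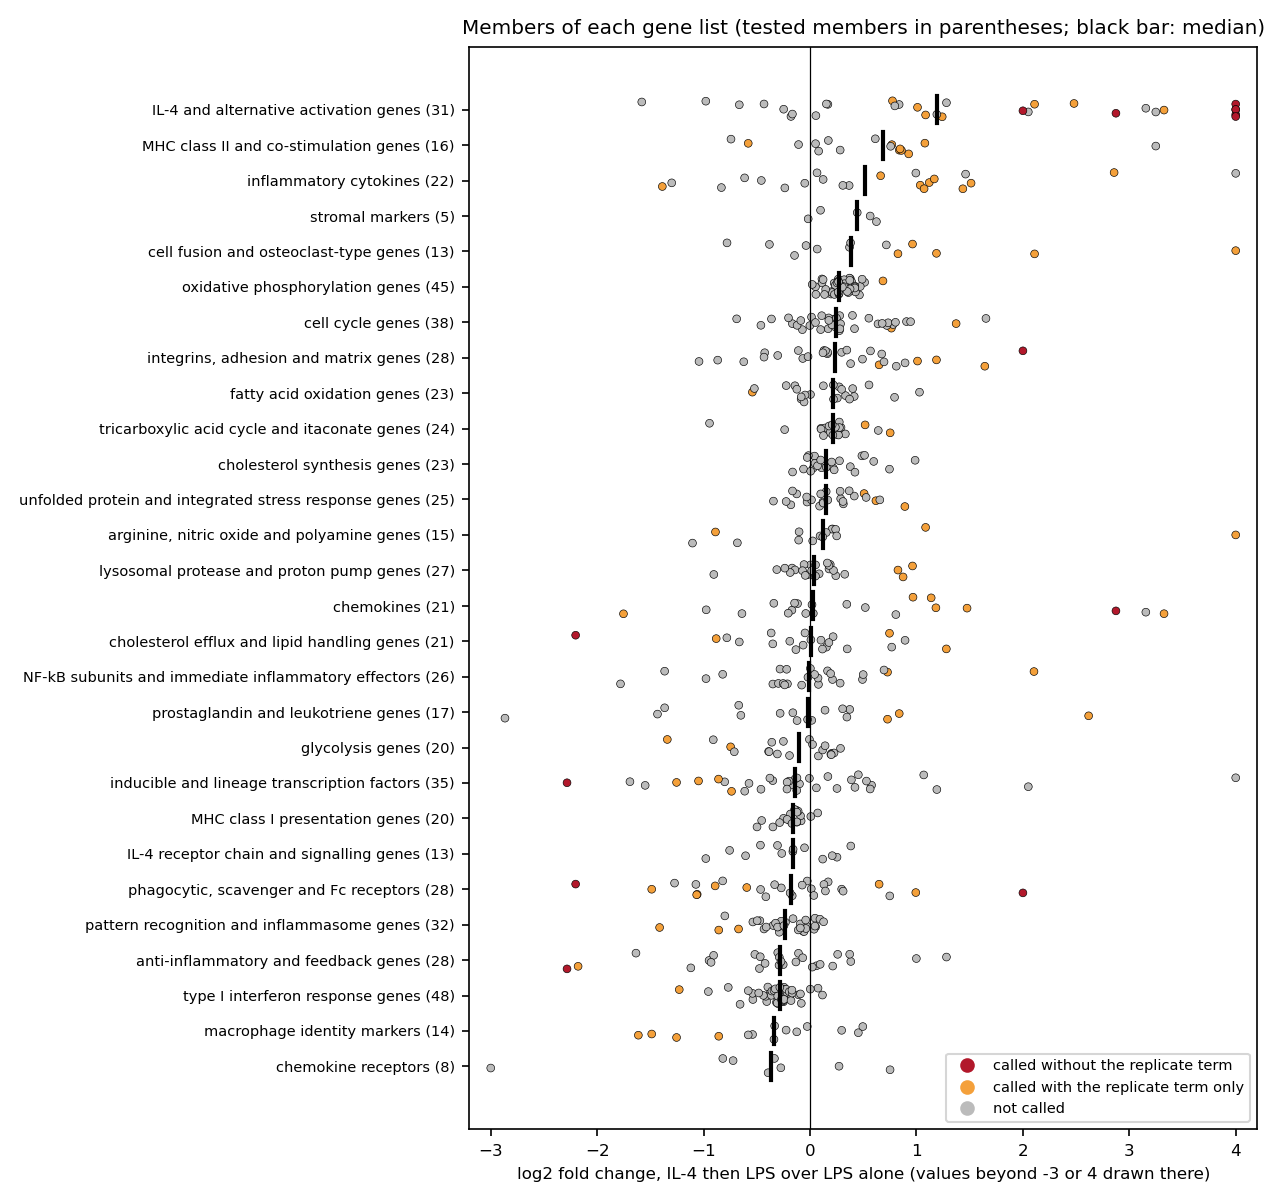
Log2 fold changes of IL-4 then LPS over LPS alone for the tested members of 28 gene lists with at least 5 tested members, ordered by their median (black bar). Red points were called without the replicate term, orange points with it only, and grey points in neither fit. IL-4 and alternative activation genes have the highest median, oxidative phosphorylation genes lie together above 0, and type I interferon genes lie together below 0.

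Genes were next grouped by their average response to LPS. LPS-induced genes, 1857 in number, were those with an average LPS effect over both arms of at least 1 on the log2 scale and an adjusted p under 0.05, and 1780 LPS-reduced genes were defined alike in the other direction. This average does not use the difference between IL-4 then LPS and LPS. The others include genes with a called average effect under 1, such as Cd74 (0.72). They also include Bcl6 (-0.13), which was higher in both LPS libraries than in both control libraries. They are thus not all genes that LPS left unchanged. Of the LPS-induced genes 43 were higher (2.32%) and 49 lower (2.64%) with the term, of the LPS-reduced genes 8 (0.449%) and 21 (1.18%), and of the 8597 others 81 (0.942%) and 79 (0.919%). The median of the LPS-induced genes was -0.15. Of them 67.0% were below 0 and 32.1% were lower without overlap, against 54.0% and 19.8% of all genes. The shares given above for the feedback, interferon and pattern recognition lists were set against all genes, not against this class. How many members of those lists were LPS-induced was not counted. The medians of the LPS-reduced and the other genes were -0.045 and -0.0078, and turned to 0.018 and 0.057 with library-size scaling. With that scaling the LPS-induced genes had a median of -0.089 with 45 higher and 26 lower. Without LPS replicate 1 or IL-4 then LPS replicate 1, 5 and 4 of them were higher and 5 and 2 lower.

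The effect of IL-4 at rest, from the libraries of IL-4 alone and control, shares no library with the comparison. With the term 183 genes were higher at rest (1.5% of the genes tested) and 105 lower (0.858%). Of the 132 genes higher after LPS, 75 were also higher at rest, 56.8% of the first list and 41.0% of the second. Of the 149 lower after LPS, 47 were also lower at rest, 31.5% and 44.8%. The sign at rest was the same for 116 of the 132 and 135 of the 149, where 49.9% of all genes were above 0 and 50.1% below 0 at rest. Across the 12234 genes, which are not independent, the 2 effects had a Pearson correlation of 0.42 and a Spearman correlation of 0.38, given as a description. Picked after their values were seen, Itgax had a difference of 2.0 ± 0.11 after LPS and 2.01 ± 0.11 at rest, Mrc1 of 1.28 ± 0.14 and 1.27 ± 0.14, and Ctsk of 0.96 ± 0.10 and 0.92 ± 0.10.

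Whether the effect of IL-4 differed between cells with and without LPS was tested as a difference of the 2 effects. Without the term 0 genes were called by edgeR, with 322 at an unadjusted p under 0.05, and DESeq2 called 5, while edgeR without a filter called 53. With the term 1 gene was called (0.00817% of the genes tested), Bcl6. Bcl6 differed by -2.29 ± 0.14 after LPS and by -0.20 ± 0.13 at rest, a difference of effects of -2.08 ± 0.19 (adjusted p 0.0259, 0.159 without the term). Without single libraries its adjusted p with the term ran from 0.027 to 0.338, and it passed only without LPS replicate 3.

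Il1b was the 1 gene called in opposite directions in the 2 settings, 1.06 ± 0.17 after LPS and -2.77 ± 0.50 at rest (adjusted p 0.0264). Its levels at rest were low, 2.68 and 1.19 CPM in control cells and 0.179 and 0.363 CPM with IL-4 alone, and the difference of its effects did not pass (adjusted p 0.148). Il1a and Cxcl3 had the same pair of signs, but their levels at rest were under 1 CPM in every library and their differences at rest did not pass. Il12a and Il23a held 0 reads in the 4 libraries without LPS, so that no effect of IL-4 at rest could be measured for them.

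**Figure D5:**
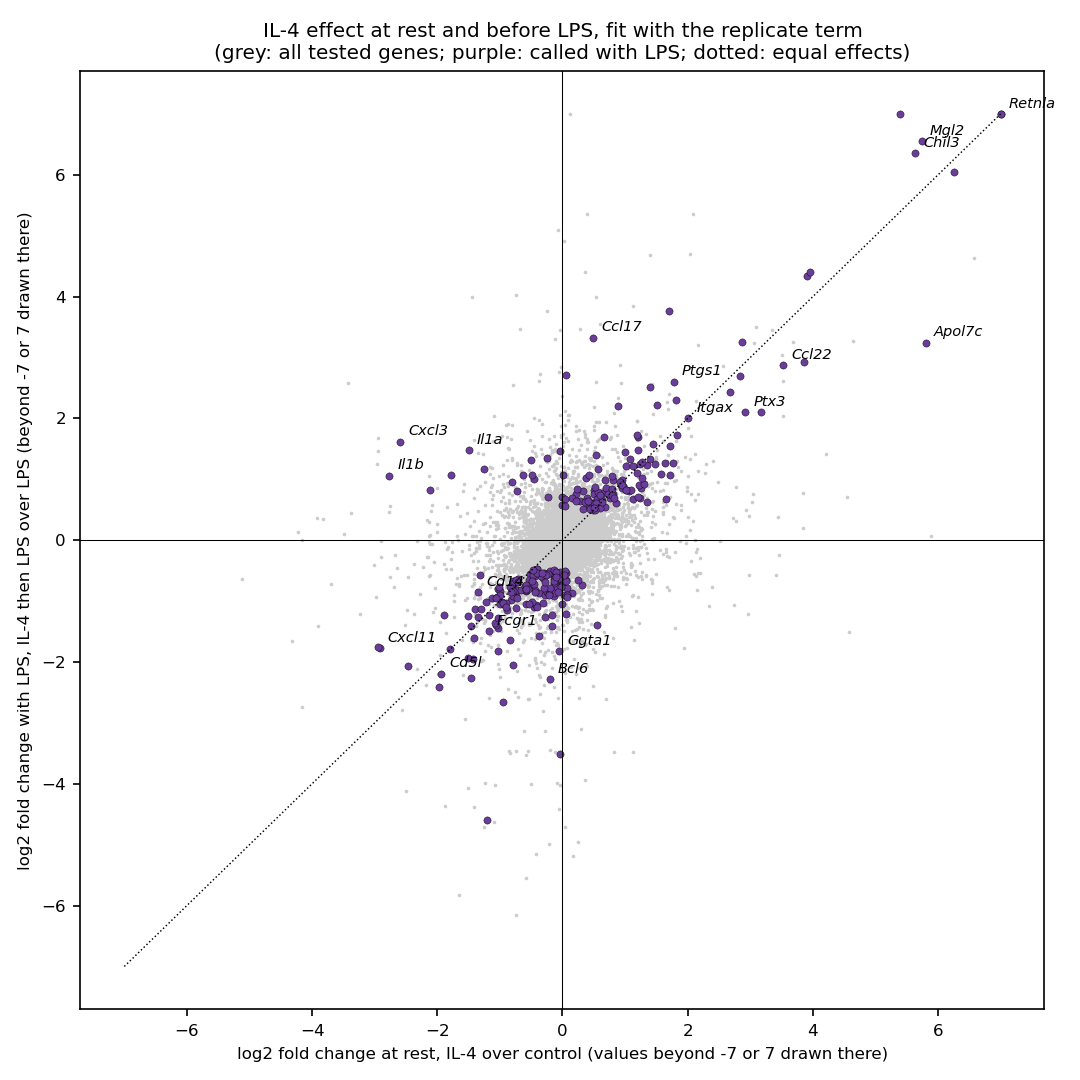
Log2 fold change of IL-4 over control at rest (x axis) against that of IL-4 then LPS over LPS alone (y axis), from the fit with the replicate term, for 12234 genes (grey) and the 281 called after LPS (purple). The dotted line marks equal effects. Itgax and Cd5l lie close to it, Bcl6 lies near 0 at rest and at -2.29 after LPS, and Il1b lies below 0 at rest and above it after LPS.

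Some markers of macrophages were themselves among the genes that were lower. With the term 4 of 14 were lower and 0 higher, against 1.22% and 1.08% of all genes, with a median of -0.34. Aif1, a calcium-binding protein gene of macrophages, measured 18.6 and 17.5 CPM after LPS and 5.83 and 5.97 CPM after IL-4 then LPS (-1.61 ± 0.20, adjusted p 0.00657), and Fcgr1 and Cd14, described above, were also lower. With the libraries left out in turn, 1, 4, 1 and 2 were lower. Of the members not called, Lgals3 (0.50), Cebpa (0.45) and Itgam (0.30) lay above 0. Below 0 and not called were Mpeg1 (-0.58), Lyz2 (-0.54), Csf1r (-0.34), Mertk (-0.33), Adgre1 (-0.22), Spi1 (-0.12) and Cd68 (-0.026). Cd4, in the list of lymphocyte markers, was lower (10.9 and 3.04 CPM and 2.33 and 1.43 CPM), while Cd3e, Cd3d, Trac and Cd8a of T cells held 0 reads in the 4 libraries. Summed neutrophil markers did not overlap, at 170.4 and 138 CPM after LPS against 98.9 and 95.2 CPM, with 4 of 12 at 0 reads and 2 passing the filter. Of 10 dendritic cell markers 4 passed the filter and 0 were called. Zbtb46 (1.91), Batf3 (1.19) and Ccr7 (0.75) stood above both LPS libraries in both libraries of IL-4 then LPS, as 16.6% of all genes did. Xcr1 (-0.67) overlapped. The median of these 4 was 0.97. The summed level of the list was 15.8 and 8.01 CPM after LPS and 19.3 and 11.9 CPM after IL-4 then LPS, with groups that overlapped. The part of such cells in the differences was not tested.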

How the data were processed

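RNA sequencing counts of mouse BMDMs were analysed in 4 groups of 2 libraries. The authors deposited raw counts, whole numbers per Ensembl gene for 54532 genes. HISAT2, StringTie and HTSeq with the mm10 genome are named, per the submitters' processing notes, while the sources used here give no versions, no strandedness and no treatment of reads that match several genes. Where genes overlap, reads of such genes, of antisense partners or near-identical copies can be mixed, which among named genes concerns Ccnd2, Ciita, Ebi3, Il1a, Il1b, Stat6, Tbxas1, Tgtp1 and Tmem176b by overlap. The table holds 6 further count columns that were not used here.

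Counts of all 8 libraries (7924932 to 9431852) were fitted with edgeR 4.0.16 (R 4.3.3), with filterByExpr by group, TMM factors (0.786 to 1.25) and quasi-likelihood tests, adjusted by the Benjamini-Hochberg method over 12234 genes and called at 0.05. There were 4 residual degrees of freedom without the replicate term and 3 with it. SE was taken from the fold change and F (the fold on the log2 scale over the root of F) and is approximate. Alternatives were DESeq2 1.42.0, library-size and upper-quartile scaling, no filter, a stricter filter, only the 4 libraries, and each library left out. The same alternatives within the fit with the term were chosen after seeing the data. The scripts were tested on simulated data.

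The pairing of numbers was checked before calls were compared. The deviations of libraries 1 and 3 correlated at 0.343 to 0.524 in all 6 pairs of groups (0.506 for the groups compared). Xist reads were found only in libraries numbered 1 and reads of Y-linked genes only in libraries numbered 3, in every group. By these reads, libraries numbered 1 came from female cells and libraries numbered 3 from male cells. The 2 libraries of a group thus did not come from 1 animal, and the replicate term cannot be told apart from sex. What else a number marks and how many animals gave the cells are not given. P-values thus reflect only the spread seen among these libraries. The libraries of a group differed beyond sampling noise.

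The members and the gene lists were chosen with earlier results of these data known. The text names the 15 genes in each direction with the largest difference among those called (without the term first, then with it), of one direction within both numbers and with at least 2 CPM in the higher group, up to 4 called members per list, genes called for the difference of effects, and a panel of 24 genes, and adds other called members of a list by name. A few genes chosen by this rule are not reported here. Ratios for groups with 1 to 3 reads carry exact conditional binomial (Clopper-Pearson) 95% intervals, and a group at 0 is set to 3 reads. Both cover counting error only.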

Additional observations from a re-analysis of the deposited data

Results flagged for a closer look

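Bcl6 is listed because the effect of IL-4 differed between cells with and without LPS by a test of the difference itself. The difference of effects was -2.08 ± 0.19 on the log2 scale with the replicate term (edgeR's quasi-likelihood test, adjusted p 0.0259), and it did not pass without the term (adjusted p 0.159). Both libraries of IL-4 then LPS were lower than both of LPS, and IL-4 alone differed from control by -0.20 ± 0.13.

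Il1b is listed because its difference with IL-4 was above 0 with LPS and below 0 at rest, in both replicate numbers. Its levels at rest, given above, were low. The difference of effects was 3.83 ± 0.52. It was tested and did not pass (edgeR's quasi-likelihood test with the replicate term, adjusted p 0.148).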

How the results depend on the processing

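Over the alternatives to the fit without the replicate term, genes higher numbered 132 with the replicate block, 61 with DESeq2 and 172 without a filter, and 4 to 9 with a library left out, against 6. Genes lower numbered 149, 58 and 225, 1 when only the 4 libraries compared were fitted and 1 to 3 with a library left out, against 2. Genes called at least 2-fold numbered 117, 83 and 206, 5 with the 4 libraries and 6 to 12 with a library left out, against 8. Genes whose IL-4 effect differed numbered 1 with the block, 5 with DESeq2, 53 without a filter and 0 with any library left out, against 0. Within the fit with the block, genes higher numbered 660 with the 4 libraries and 12 to 137 with a library left out (12, 64, 14 and 33 without LPS replicates 1 and 3 and IL-4 then LPS replicates 1 and 3), against 132, and genes lower 88 with library-size scaling, 835 with the 4 libraries, 244 with DESeq2 and 9 to 108 with a library left out (10, 95, 9 and 17 without those libraries, 84 and 97 without IL-4 replicates 1 and 3), against 149. The causes were not tested.

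Signs turned only for genes that were not called without the term: Tlr4 to 0.035 with library-size scaling and Ifnb1 to -0.020 with the replicate block. With a library left out the range was -0.69 to 0.62 for Egr2, -0.97 to 0.68 for Ifnb1, -0.099 to 1.48 for Il12b, -1.67 to 0.41 for Il4ra, -0.023 to 0.49 for Nos2, -1.62 to 0.066 for Odc1, -0.32 to 0.21 for Tlr4 and -0.083 to 1.03 for Tnf. List medians turned in sign under at least 1 alternative for the chemokine receptor, NF-kB, transcription factor, receptor, eicosanoid, glycolysis, cholesterol, lipid, lysosome and stromal marker lists, and for the LPS-reduced genes and those that LPS left in neither class. With 2 libraries per group, the libraries compared held 7924932 to 9431852 counts, and what difference could be called at a given level was not measured.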

Other observations

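Other lists held a few members called with the replicate term, which called 1.08% of all genes higher and 1.22% lower. Of 25 genes of the unfolded protein and integrated stress response, 3 were higher, the chaperones and folding enzymes Calr (465 and 470.5 CPM after LPS and 685 and 752 CPM after IL-4 then LPS, 0.62 ± 0.099), Pdia6 (0.51 ± 0.094) and Sdf2l1 (0.88 ± 0.13), with a list median of 0.15 and 0 called without any 1 of the 4 libraries compared. Of 27 lysosomal protease and proton pump genes, 3 were higher, Ctsk, Atp6v0d2 and the cathepsin L gene Ctsl (764 and 1150.4 CPM and 1285 and 2225 CPM, 0.86 ± 0.13), with a median of 0.041.

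Of 38 cell cycle genes, 29 were above 0 (46.0% of all genes were), with a median of 0.24, and 2 were higher with the term. Rrm2, a subunit of ribonucleotide reductase, measured 5.74 and 4.01 CPM after LPS and 12.7 and 12.6 CPM after IL-4 then LPS (1.40 ± 0.23), and the cyclin gene Ccnd2 288 and 164 CPM and 431 and 337 CPM (0.80 ± 0.17). Of 8 chemokine receptor genes, 0 were higher and 0 lower, with a median of -0.36.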
